A study of Homo sapiens with 12 samples.

Results

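The enzymes that make serine and pass its carbon to folate were followed in MIA PaCa-2 cells, an established human line from a pancreatic cancer. The 8 genes were taken by their symbols: PHGDH, PSAT1 and PSPH for serine synthesis, SHMT1 and SHMT2 for the transfer of serine carbon to folate, and MTHFD1, MTHFD1L and MTHFD2 for the folate steps that follow. All 8 have a row among the 15090 listed genes, and all 8 passed the filter on low values, as did 12789 genes in all. Total RNA was sequenced in 12 libraries, 3 in each of 4 groups: 40 mM L-glutamine with 0.5 µM gemcitabine, 2 mM with 0.5 µM gemcitabine, 40 mM without the drug, and 2 mM without the drug. All groups are wild type, were sampled at 48 h and were kept in RPMI 1640 medium to which L-glutamine had been added back. The series design calls the 3 samples of a group biological replicates of a single cell line. If they do not come from separate cultures, the p-values measure only the spread between these samples.

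PHGDH oxidises the glycolytic intermediate 3-phosphoglycerate, PSAT1 moves an amino group from glutamate onto the product, and PSPH removes the phosphate to leave serine. SHMT2 in mitochondria and SHMT1 in the cytosol then split serine into glycine and a carbon unit held on tetrahydrofolate. MTHFD2 and MTHFD1L carry that unit through the mitochondrial steps to formate, and MTHFD1 takes up formate in the cytosol for purine, thymidylate and methionine synthesis. PSAT1 ties the pathway to glutamine, since glutamate made from glutamine is its amino donor. Gemcitabine is a deoxycytidine analogue that blocks DNA synthesis. The series title asks about a high glutamine dose, amino acid transport and chemosensitivity.

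The promoters of 4 members are shown, chosen after the values were seen. The choice is not a ranking by drug response, since MTHFD2, with a clear response below, is left out. The set of RefSeq promoters used here (GRCh38.p14) holds 6 of the 8 members, and lacks PSPH and SHMT2. The 250 bases before the start are printed for PHGDH at chr1:119711684-119711933, PSAT1 at chr9:78296875-78297124, MTHFD1 at chr14:64388103-64388352 and MTHFD1L at chr6:150866236-150866485, all on the plus strand. For MTHFD1L this is the first of 4 listed starts. Capitals mark matches on either strand to the CCAAT box (CCAAT), to the E-box (CACGTG), the sequence that MYC and related factors bind, and to the CARE motif (TGATGNAAT), which ATF4 binds with a C/EBP partner.
PHGDH: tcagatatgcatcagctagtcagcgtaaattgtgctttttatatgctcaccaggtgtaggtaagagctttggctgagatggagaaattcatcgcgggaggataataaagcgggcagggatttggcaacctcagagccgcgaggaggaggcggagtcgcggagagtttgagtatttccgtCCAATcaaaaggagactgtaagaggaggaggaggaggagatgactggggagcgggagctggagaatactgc
PSAT1: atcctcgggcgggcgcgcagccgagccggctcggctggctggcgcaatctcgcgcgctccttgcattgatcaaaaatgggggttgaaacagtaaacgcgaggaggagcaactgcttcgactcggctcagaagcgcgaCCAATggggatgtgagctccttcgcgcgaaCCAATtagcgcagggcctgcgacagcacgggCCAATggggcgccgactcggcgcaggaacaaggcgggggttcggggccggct
MTHFD1: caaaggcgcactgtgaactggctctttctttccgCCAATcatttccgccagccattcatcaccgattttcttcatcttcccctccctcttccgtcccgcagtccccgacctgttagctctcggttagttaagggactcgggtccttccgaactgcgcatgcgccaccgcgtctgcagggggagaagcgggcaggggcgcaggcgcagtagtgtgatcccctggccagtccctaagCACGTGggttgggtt
MTHFD1L: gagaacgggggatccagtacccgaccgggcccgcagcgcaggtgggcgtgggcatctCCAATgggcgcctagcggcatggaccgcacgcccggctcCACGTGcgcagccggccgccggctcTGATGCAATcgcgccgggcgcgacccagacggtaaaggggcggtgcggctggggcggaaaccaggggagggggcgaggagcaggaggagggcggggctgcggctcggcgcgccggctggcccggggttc
CCAAT was found in all 6 promoters, and in 33.0% of the 27305 promoters in the table. CACGTG was found in MTHFD1 and MTHFD1L, and in 6.49% of all promoters. TGATGNAAT was found in MTHFD1L, and in 0.916% of all promoters. SHMT1 and MTHFD2, which are not shown, matched CCAAT alone. No motif overlapped another in the 4 sequences shown. These matches are letters in a window and say nothing of binding.

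The deposited values are log2 of reads per 1000000 (RPM) plus 1, and levels are given here as RPM. The libraries hold between 21723094 and 32811746 reads in listed genes. The members rest on at least 1524 reads each (MTHFD1L) and on up to 9303 (MTHFD1), where counting alone gives a coefficient of variation of 2.56% and 1.04%. Per 1000 bases of the GENCODE 29 principal transcript, PSAT1 had the highest mean level over the 12 libraries, at 103.0 RPM. MTHFD1 followed at 86.6, SHMT2 at 74.2, MTHFD2 at 58.5, PHGDH at 49.1, PSPH at 49.0 and SHMT1 at 48.6, and MTHFD1L was lowest at 19.1 RPM per 1000 transcript bases. The order depends on the length used: per 1000 coding bases MTHFD2 was highest at 248 RPM, and MTHFD1L was lowest again at 23.5 RPM. PSPH has near-identical copies in the genome, so its counts are uncertain. None of 10 pseudogene symbols looked up for the members, PSAT1 among them, has a row. Whether reads of such copies were counted with the members was not tested.

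The epithelial markers KRT8, KRT18 and KRT19 were all measured, at group means from 202 RPM (KRT19) to 2318 RPM (KRT8). Of 8 markers of fibroblasts, leukocytes and endothelium, PDGFRB, PTPRC, CD3E, PECAM1 and VWF have no row. KRT8 had 1699 and 2318 RPM with the drug at 40 and 2 mM, against 1362 and 1682 RPM without it. KRT18 had 1037 and 1558 RPM with the drug, against 859 and 1146 RPM without it. KRT19 went the other way, with 202 and 276.5 RPM with the drug, against 231 and 286 RPM without it, and only its fall at 40 mM was called (log2 −0.19, limma adjusted p = 6.9e-05). CD68 had 43.1 and 43.2 RPM with the drug at 40 and 2 mM, against 20.95 and 19.8 RPM without it. COL1A2 had 678 and 606 RPM with the drug, against 885 and 757 RPM without it, a fall at both levels. COL1A1, near the lower limit of testing, had 1.09 and 1.45 RPM with the drug, against 0.609 and 0.813 RPM without it, and its rise at 2 mM was called (log2 0.44, limma adjusted p = 0.0485). The part of these genes in the results below was not tested. In bulk RNA, a change in the share of some cells and a change in RNA per cell cannot be told apart.

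**Figure D1:**
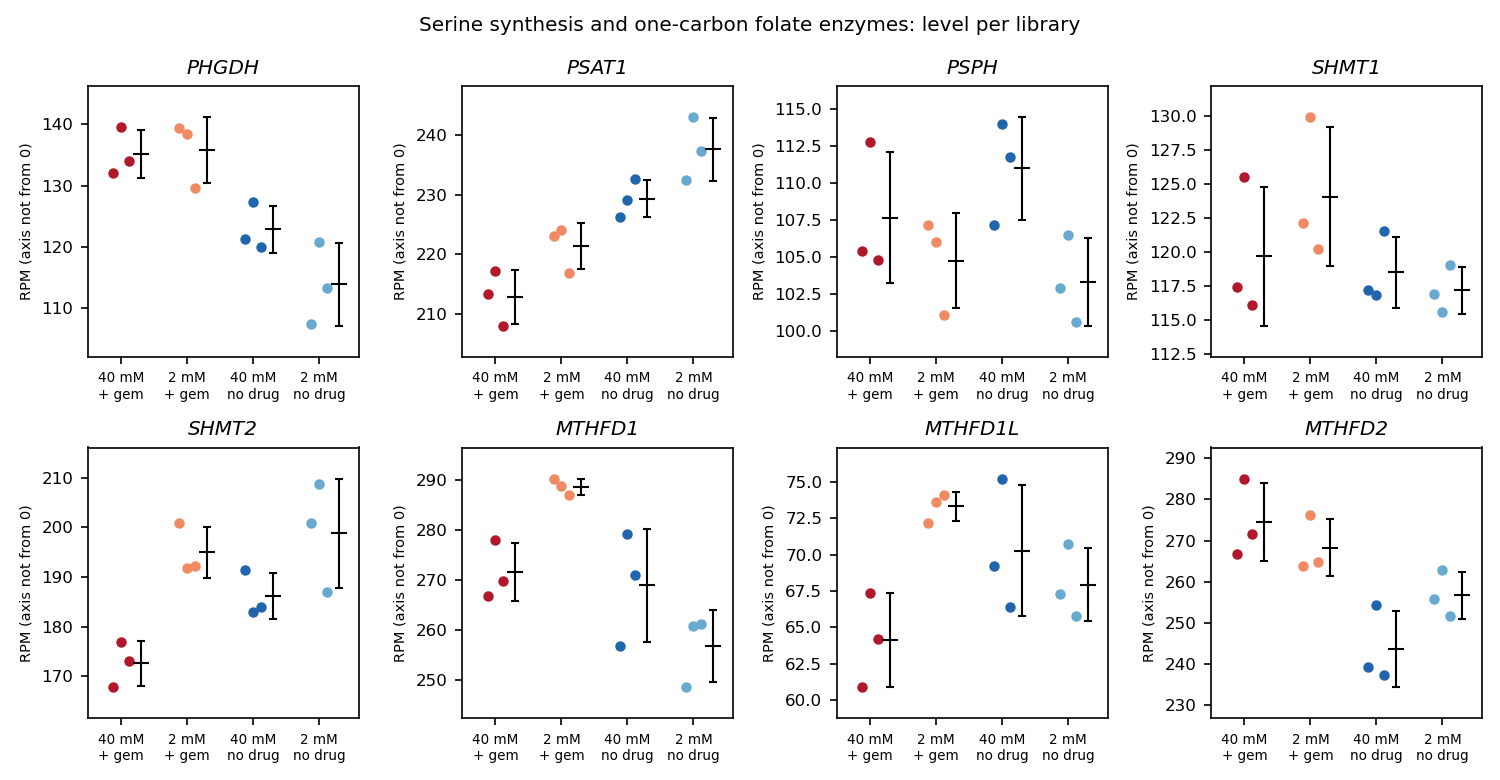
Level of each of the 8 genes in RPM (vertical axis, not from 0) in the 4 groups; points are libraries and bars show the mean and SD (n = 3). PHGDH is higher in both drug groups and PSAT1 lower in both, while the groups of PSPH, SHMT1 and MTHFD1L overlap when neighbours are taken in order of their means.

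Differences were small. The group means of SHMT1 spanned 0.08 on the log2 scale, the narrowest range of the 8, and those of PHGDH spanned 0.25, the widest. With the drug at 2 mM, 2 members rose (PHGDH and MTHFD1) and 1 fell (PSAT1), in a comparison that called 34.6% of all tested genes, 17.5% higher and 17.1% lower. With the drug at 40 mM, 2 rose (PHGDH and MTHFD2) and 3 fell (PSAT1, SHMT2 and MTHFD1L), where 30.3% of all genes were called, 14.1% higher and 16.2% lower. With 40 against 2 mM glutamine in the presence of the drug, 3 fell (SHMT2, MTHFD1L and MTHFD1) and 0 rose, where 21.6% were called, 8.62% higher and 13.0% lower. Without the drug, limma called 0 of the 8 between 40 and 2 mM glutamine, where 17.5% of genes were called, 8.41% higher and 9.12% lower; 4 members had an unadjusted p under 0.05, and voom on recovered reads called 2 (PHGDH and PSPH, both higher). The 3 of 8 for the drug at 2 mM lie close to the background share. The 5 of 8 at 40 mM lie above it, but 3 of those calls (PSAT1, SHMT2 and MTHFD1L) are lost without scaling factors. With 1 library left out, MTHFD1 (0.10, limma adjusted p = 0.0424, without replicate 1 at 40 mM without drug) and MTHFD2 (−0.11, 0.0338, without replicate 2 of that group) passed for glutamine without drug. The drug comparisons at 2 and at 40 mM share no libraries. Each glutamine comparison shares a group with each drug comparison, so calls of a gene in both are not independent.

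The split between higher and lower calls over all genes depends on the scaling. Scaling factors recovered from the deposited values lay between 1.0263 and 1.0292 for the group at 40 mM with drug (3 libraries), and the other 9 libraries had 1.002 or less. Of the calls for glutamine with drug, 39.9% were higher as deposited, against 68.2% without these factors. The same shares were 46.6% and 62.9% for the drug at 40 mM, 48.0% and 61.2% for glutamine without drug, and 33.1% and 58.9% for the interaction. Removing the factors moved the median of all genes by at most 0.05 on the log2 scale. Member calls that depend on this are named below.

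PHGDH, the first enzyme of serine synthesis, was higher with gemcitabine at both glutamine levels. Its level was 132, 139.5 and 134 RPM at 40 mM with the drug and 139, 138 and 129.6 RPM at 2 mM with the drug. It was 121, 127 and 120.0 RPM at 40 mM without the drug and 107.5, 121 and 113 RPM at 2 mM without it. All 3 drug libraries lay above all 3 libraries without drug at each glutamine level. The log2 fold change was 0.25 ± 0.041 (SE; limma adjusted p = 1.03e-05) at 2 mM, a rise of 19.1%. At 40 mM it was 0.14 ± 0.041 (limma adjusted p = 0.0104), a rise of 9.96%. The rise at 2 mM held in all 21 alternatives, with log2 values from 0.21 to 0.30. The rise at 40 mM missed the threshold without replicate 3 at 40 mM without drug (0.12, limma adjusted p = 0.0547) and without replicate 2 at 40 mM with drug (0.11, limma adjusted p = 0.0709). Between 40 and 2 mM glutamine without drug, PHGDH gave 0.11 ± 0.041 (limma adjusted p = 0.063), which passed without scaling factors (0.13, 0.0234), with voom (0.13, 0.0276) and without replicate 2 at 2 mM without drug (0.15, 0.0159).

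PSAT1, the transaminase of the second step, was lower with the drug at both levels, the opposite direction to PHGDH. It had 213, 217 and 208 RPM at 40 mM with the drug, 223, 224 and 217 RPM at 2 mM with the drug, 226, 229 and 233 RPM at 40 mM without it, and 232.5, 243 and 237 RPM at 2 mM without it. Drug and no-drug libraries did not overlap at either level. The log2 fold change was −0.10 ± 0.031 (limma adjusted p = 0.0107) at 2 mM and −0.11 ± 0.031 (limma adjusted p = 0.00799) at 40 mM. The call at 2 mM was lost without replicate 2 at 2 mM without drug (−0.09, limma adjusted p = 0.0584) and without replicate 3 at 2 mM with drug (−0.09, limma adjusted p = 0.0639). The call at 40 mM was lost without scaling factors (−0.07, limma adjusted p = 0.102) and with voom (−0.07, limma adjusted p = 0.0925).

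The ratio of PSAT1 to PHGDH reads does not depend on the scaling of a library; it was computed after the values were seen and is a description. It was 1.62, 1.56 and 1.55 at 40 mM with the drug and 1.60, 1.62 and 1.67 at 2 mM with the drug. It was 1.87, 1.80 and 1.94 at 40 mM without the drug and 2.16, 2.01 and 2.09 at 2 mM without it. The 6 libraries with drug lie below the 6 without.

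**Figure D2:**
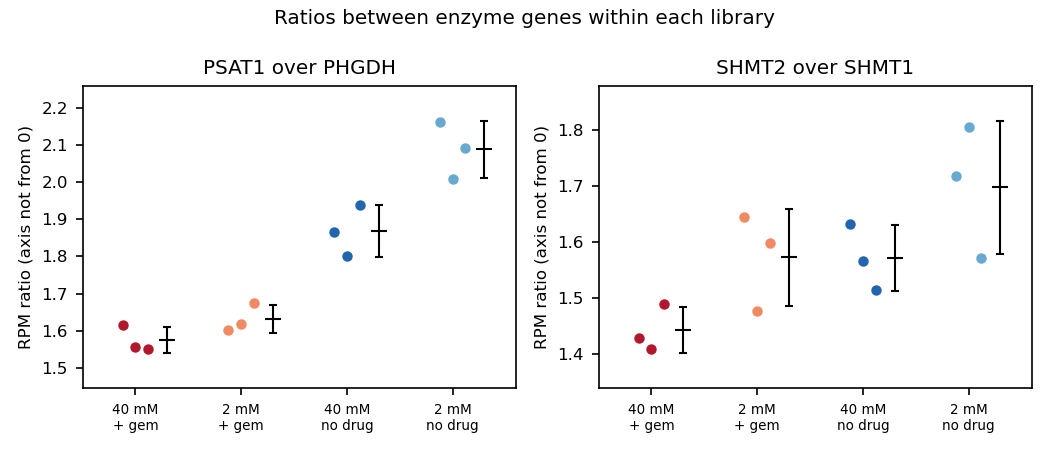
Ratios between members in each library (vertical axis, not from 0) by group, with mean and SD (n = 3). The PSAT1 to PHGDH ratio averages 1.58 and 1.63 with drug at 40 and 2 mM, against 1.87 and 2.09 without.

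PSPH, which releases serine in the last step, passed no test. Its group means were 107.7 ± 4.46 RPM at 40 mM with drug, 105 ± 3.21 RPM at 2 mM with drug, 111 ± 3.44 RPM at 40 mM without drug and 103 ± 2.98 RPM at 2 mM without drug (SD, n = 3 each). Its drug response was 0.02 on the log2 scale at 2 mM (95% interval −0.06 to 0.10) and −0.04 at 40 mM (−0.13 to 0.04). Without drug, its 3 libraries at 40 mM (107, 114 and 112 RPM) lay above its 3 at 2 mM (103, 106.5 and 101 RPM), and limma gave 0.10 ± 0.04 with an adjusted p of 0.0739. The difference passed without scaling factors (0.12, limma adjusted p = 0.0281), with voom (0.13, 0.0279) and without replicate 1 at 40 mM without drug (0.13, 0.0447). It was the 1 member of 8 whose groups did not overlap there, beside 31.1% of all genes. The summed level of the 3 serine synthesis genes was 456 ± 12.1, 462 ± 12.3, 463 ± 7.87 and 455 ± 14.1 RPM in the groups at 40 mM with drug, 2 mM with drug, 40 mM without drug and 2 mM without drug (SD, n = 3 each). Without scaling factors the sums were 468, 457, 462.5 and 448 RPM in the same order of groups, so the place of the group at 40 mM with drug turns with the scaling.

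SHMT2, the mitochondrial hydroxymethyltransferase, was lowest at 40 mM with the drug. Its level there was 168, 177 and 173 RPM, against 201, 192 and 192 RPM at 2 mM with the drug, and the 2 groups did not overlap. The glutamine difference with drug was −0.18 ± 0.037 on the log2 scale (limma adjusted p = 0.000634), a fall that held in all 21 alternatives (−0.19 to −0.12). Without drug SHMT2 had 191, 183 and 184 RPM at 40 mM and 201, 209 and 187 RPM at 2 mM, and the difference of −0.09 ± 0.037 missed the threshold (limma adjusted p = 0.0739). It passed without replicate 3 at 2 mM without drug (−0.14, limma adjusted p = 0.012) and without replicate 1 at 40 mM without drug (−0.11, 0.0487). With the drug SHMT2 fell at 40 mM, with a log2 fold change of −0.11 ± 0.037 (limma adjusted p = 0.0229), and gave −0.03 ± 0.037 at 2 mM (limma adjusted p = 0.611). The call at 40 mM was lost without scaling factors and with voom (−0.07 in both, limma adjusted p = 0.17 and 0.18). It was also lost without replicate 1 at 40 mM without drug (−0.09, limma adjusted p = 0.102) and without replicate 1 at 40 mM with drug (−0.09, limma adjusted p = 0.113).

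SHMT1, the cytosolic counterpart, passed no test. It had 117, 125.5 and 116 RPM at 40 mM with drug, 122, 129.9 and 120.2 RPM at 2 mM with drug, 117, 117 and 121.5 RPM at 40 mM without drug, and 117, 116 and 119 RPM at 2 mM without drug. The libraries with and without drug did not overlap at 2 mM, where the difference was 0.08 (95% interval 0.002 to 0.16, limma adjusted p = 0.104). The other 3 pairwise differences had intervals between −0.13 and 0.10.

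MTHFD2, the mitochondrial dehydrogenase, rose with the drug at 40 mM. It had 267, 285 and 272 RPM with the drug against 239, 254 and 237.5 RPM without it, a log2 fold change of 0.17 ± 0.033 (limma adjusted p = 0.000146) that held in all 21 alternatives (0.14 to 0.21). At 2 mM it had 264, 276 and 265 RPM with the drug against 256, 263 and 252 RPM without it. These groups did not overlap either, but the difference of 0.06 ± 0.033 missed the threshold (limma adjusted p = 0.146). For the drug at 2 mM, 6 of the 8 members had groups that did not overlap, beside 46.1% of all genes, and at 40 mM 4 of 8, beside 40.6%.

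MTHFD1L makes formate in mitochondria. Of the 8 members, it had the drug response that differed most between the glutamine levels, an interaction not called (limma adjusted p = 0.059). It had 60.9, 67.3 and 64.2 RPM at 40 mM with the drug and 72.2, 73.6 and 74.1 RPM at 2 mM with the drug, and these groups did not overlap. With drug, 3 of the 8 members did not overlap between glutamine levels, beside 37.4% of all genes. Without the drug MTHFD1L had 69.2, 75.2 and 66.4 RPM at 40 mM and 67.3, 70.7 and 65.8 RPM at 2 mM. With drug, it fell at 40 against 2 mM glutamine, with a log2 fold change of −0.19 ± 0.048 (limma adjusted p = 0.00393), in all 21 alternatives (−0.23 to −0.14). The drug response was −0.13 ± 0.048 at 40 mM (limma adjusted p = 0.0407) and 0.11 ± 0.048 at 2 mM (limma adjusted p = 0.0792), which passed with voom (0.12, 0.0487), in the fit of these 2 groups alone (0.11, 0.0461) and without replicate 2 at 2 mM without drug (0.14, 0.0483). The call at 40 mM was lost in 8 alternatives: quantile normalization (−0.12, limma adjusted p = 0.0701), no scaling factors (−0.09, 0.17), voom (−0.09, 0.192), the fit of these 2 groups alone (−0.13, 0.0647), and without any 1 of 4 libraries. Those libraries were replicates 1 (−0.14, limma adjusted p = 0.0537) and 2 (−0.08, 0.26) at 40 mM without drug, and replicates 1 (−0.09, 0.206) and 3 (−0.13, 0.077) at 40 mM with drug.

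MTHFD1, the cytosolic enzyme that takes up formate, rose with the drug at 2 mM. It had 290.1, 289 and 287 RPM with the drug against 249, 261 and 261 RPM without it. The log2 fold change was 0.17 ± 0.032 (limma adjusted p = 0.000115), and the call held in all 21 alternatives (0.14 to 0.18). At 40 mM it had 267, 278 and 269.7 RPM with the drug against 257, 279 and 271 RPM without it, a difference of 0.01 ± 0.032 (limma adjusted p = 0.781). With drug, MTHFD1 was lower at 40 than at 2 mM glutamine (log2 −0.09 ± 0.032), with an adjusted p of 0.0492 by limma that lies just inside the threshold. That call was lost in 11 of 21 alternatives, among them quantile normalization (−0.01, limma adjusted p = 0.829), no scaling factors (−0.03, 0.48) and voom (−0.03, 0.461). It was also lost without any 1 of the 3 libraries at 2 mM with drug, without replicate 1 or 3 at 40 mM with drug, or without replicate 3 at 40 mM without drug, with limma adjusted p from 0.0566 to 0.168.

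**Figure D3:**
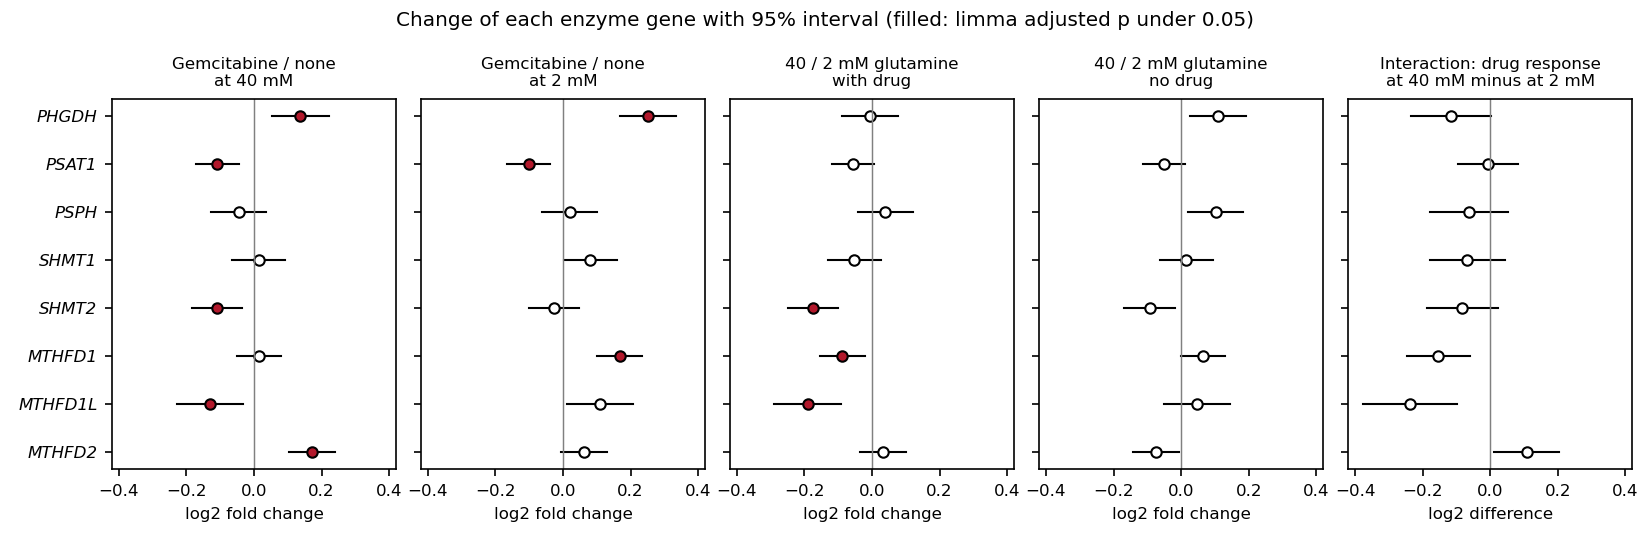
Log2 fold change of each member with its 95% interval in the drug and glutamine comparisons; filled points passed the adjusted p threshold of 0.05. PHGDH lies above 0 and PSAT1 below 0 for the drug at both glutamine levels, and MTHFD1L lies on opposite sides of 0.

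The interaction takes the drug's log2 fold change at 40 mM and subtracts its value at 2 mM. Limma called 0 of the 8 members by its adjusted p, in a test that called 2.20% of all genes, 0.727% higher and 1.47% lower. At an unadjusted p under 0.05 there were 3, and voom called 0. The largest difference among the members was that of MTHFD1L, −0.24 ± 0.068 (95% interval −0.38 to −0.10, limma adjusted p = 0.059). MTHFD1 gave −0.15 ± 0.046 (limma adjusted p = 0.0719) and MTHFD2 0.11 ± 0.047 (limma adjusted p = 0.26). Both MTHFD1L (limma adjusted p = 0.0452) and MTHFD1 (0.0474) passed with robust moderation. MTHFD1L also passed without replicate 2 at 2 mM without drug (0.0424), replicate 3 at 40 mM without drug (0.0433) or replicate 2 at 40 mM with drug (0.046), and MTHFD1 without replicate 1 at 40 mM without drug (0.0218). A drug response called at 1 glutamine level and not at the other is therefore not shown to differ between them by this test.

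The 8 genes summed to 1358 ± 38.7 RPM at 40 mM with drug, 1411 ± 22.4 RPM at 2 mM with drug, 1351 ± 25.7 RPM at 40 mM without drug and 1352 ± 31.8 RPM at 2 mM without drug (SD, n = 3 each). Without scaling factors the sums at 40 and 2 mM with drug were 1396 and 1397 RPM, against 1349 and 1331 RPM without drug, so the gap between the drug groups is present only with the factors. Their median log2 fold change was 0.07 for the drug at 2 mM, −0.01 for the drug at 40 mM, 0.03 for glutamine without drug and −0.05 for glutamine with drug, beside medians of all genes between −0.005 and 0.002. In the same order of groups as the sums above, the cytosolic SHMT1 and MTHFD1 summed to 391 ± 10.7, 413 ± 5.71, 387 ± 11.8 and 374 ± 7.63 RPM. The mitochondrial SHMT2, MTHFD2 and MTHFD1L summed to 511 ± 17.0, 537 ± 5.32, 500 ± 12.35 and 523.5 ± 18.9 RPM (SD, n = 3 each). Without scaling factors the cytosolic sums were 402, 408, 387 and 368 RPM, and the mitochondrial sums 525.5, 531, 499 and 515 RPM. The ratio of SHMT2 to SHMT1 reads averaged 1.44 ± 0.0421 at 40 mM with drug, 1.57 ± 0.0865 at 2 mM with drug, 1.57 ± 0.059 at 40 mM without drug and 1.70 ± 0.119 at 2 mM without drug (SD, n = 3 each).

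Around the members, 76 further genes of 8 lists were tested: folate, one-carbon, glycine, methionine and serine genes, and also glycolytic genes, regulators and genes of the ATF4 response. They held 18 higher and 16 lower calls for the drug at 2 mM, or 44.7% against 34.6% of all genes. For the drug at 40 mM they held 15 and 20 (46.1% against 30.3%), and 24 and 13 with voom. For glutamine with drug they held 6 and 15 (27.6% against 21.6%), and 12 and 11 with voom, and for glutamine without drug 11 and 6 (22.4% against 17.5%). Several moved further than any member. GLDC, the decarboxylase of glycine cleavage, had 11.1 ± 0.779 RPM with the drug at 40 mM against 3.98 ± 0.664 RPM without it, and 9.89 ± 0.86 RPM with the drug at 2 mM against 4.58 ± 0.337 RPM without it (SD, n = 3 each). Its log2 fold changes were 1.29 ± 0.118 and 0.96 ± 0.118 (limma adjusted p = 1.27e-10 and 5.9e-08).

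Among 12 genes of folate transport, storage and interconversion, gemcitabine raised 4 and lowered 1 at 2 mM, where 17.5% of all genes were called higher and 17.1% lower. It raised 5 and lowered 2 at 40 mM, where 14.1% were called higher and 16.2% lower. GGH, which trims folate polyglutamates, rose by 0.49 at 40 mM and 0.52 at 2 mM. MTHFD2L, the close relative of MTHFD2, rose by 0.33 and 0.45 in the same comparisons. TYMS, which makes thymidylate, belongs to another list, that of one-carbon unit users. It rose by 0.43 at 2 mM and gave 0.15 at 40 mM (limma adjusted p = 0.189), which passed without replicate 1 at 40 mM without drug (0.26, 0.0213) or replicate 1 at 40 mM with drug (0.24, 0.049). SLC25A32, the mitochondrial folate carrier, gave 0.15 ± 0.058 at 40 mM (limma adjusted p = 0.0493) and 0.14 ± 0.058 at 2 mM (limma adjusted p = 0.0525). Both lie at the threshold: the call at 40 mM was lost in 9 of 12 fits that left out 1 library (limma adjusted p from 0.0535 to 0.206), the exceptions being replicates 2 and 3 at 2 mM without drug and 3 at 40 mM without drug. The difference at 2 mM passed without replicate 2 at 2 mM without drug (0.0271) and without replicate 2 or 3 at 40 mM without drug (0.0427 and 0.0478).

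In the list of serine and glycine transport and use, gemcitabine raised 5 of 16 genes and lowered 4 at 2 mM, and raised 2 and lowered 2 at 40 mM, beside 34.6% and 30.3% of all genes called. The 4 of 16 at 40 mM lie below that share. SFXN2, of the family of mitochondrial serine carriers, rose by 0.83 at 2 mM and 0.49 at 40 mM, and SLC1A4, a neutral amino acid transporter that carries serine, by 0.57 and 0.55. SLC6A9, the glycine transporter GLYT1, fell by 0.52 and 0.57, and SLC38A2, a neutral amino acid transporter, by 0.29 and 0.33. High glutamine raised SLC1A4 by 0.42 without drug and 0.41 with drug. It lowered SFXN3, another sideroflexin, by 0.57 and 0.54.

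In the methionine cycle, salvage and transsulfuration list, gemcitabine raised 0 of 12 genes and lowered 5 at 2 mM, where 17.1% of all genes were called lower, and raised 0 and lowered 6 at 40 mM, where 16.2% were. Of the 5 at 2 mM, the calls of CTH, which makes cysteine, and AHCY, which clears S-adenosylhomocysteine, were lost in 3 and 5 of 21 alternatives. For CTH these were without replicate 2 (limma adjusted p = 0.0805) or 3 (0.0863) at 2 mM without drug or replicate 2 at 2 mM with drug (0.121). For AHCY they were without scaling factors (limma adjusted p = 0.0583), without replicate 2 at 2 mM without drug (0.244), and when any 1 library at 2 mM with drug was left out (0.0515, 0.0587 and 0.174). At 40 mM the call of AHCY was lost without scaling factors (0.11) and with voom (0.0806). High glutamine raised MTR, methionine synthase, by 0.26 without drug and 0.25 with drug, and MAT2A, which makes S-adenosylmethionine, by 0.18 and 0.21. From the list of one-carbon unit users, GART, a purine enzyme that uses formyl folate, fell with high glutamine by 0.14 without drug and 0.16 with drug. CBS, the first enzyme of transsulfuration, passed no test, with pairwise differences from −0.157 to −0.077. SFXN1, the main mitochondrial serine carrier, belongs to the list of serine and glycine transport and use. It rose by 0.21 with the drug at 2 mM.

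**Figure D4:**
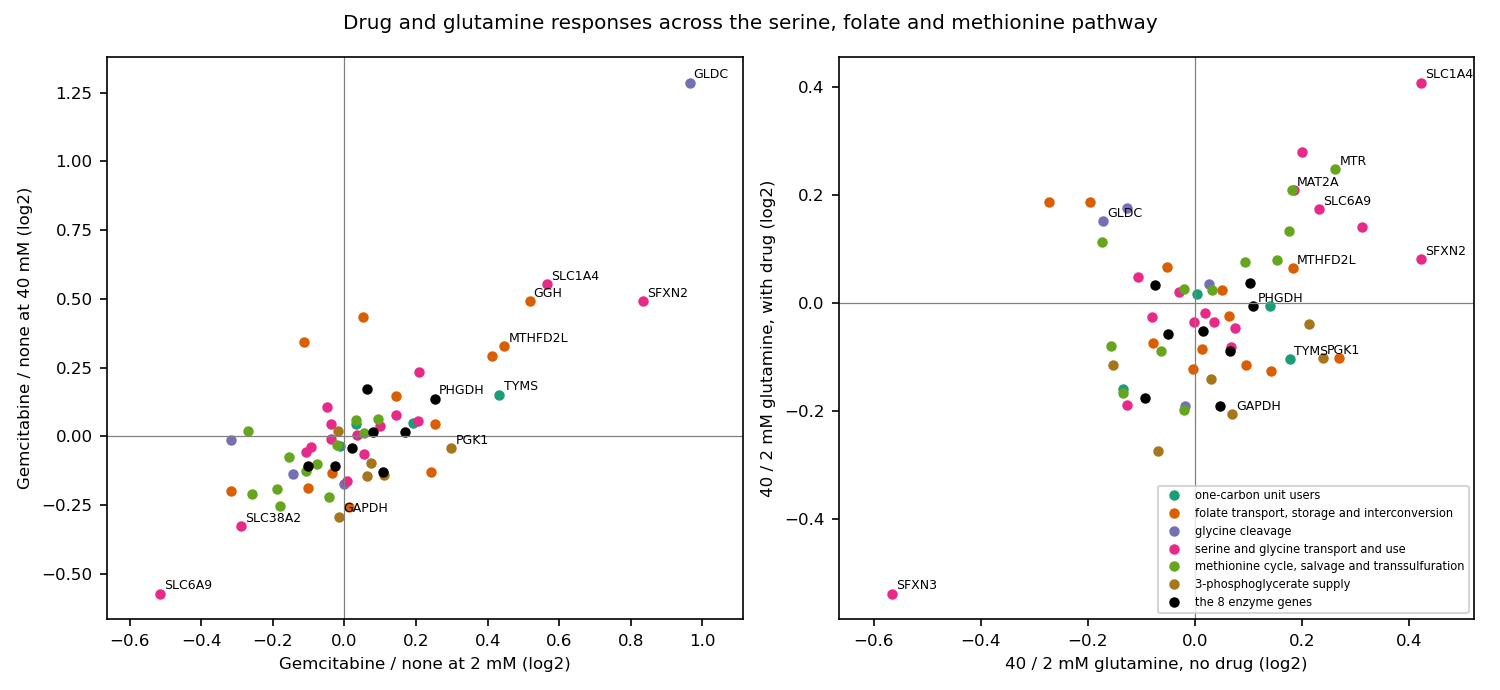
Log2 fold changes of the 8 members (black) and of 6 further lists (colours) for the drug at each glutamine level and for glutamine without and with the drug. GLDC lies farthest from 0 for the drug, and PHGDH, at 0.25 and 0.14, is the member farthest along the drug diagonal.

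Of 6 regulators, 1 rose with the drug at 2 mM and 2 rose and 1 fell at 40 mM, beside 34.6% and 30.3% of all genes called. KEAP1 rose at 2 mM (log2 0.205, limma adjusted p = 0.00258). At 40 mM CEBPG rose (0.25, limma adjusted p = 0.000103), as did CEBPB (0.29, limma adjusted p = 0.0222), whose call was lost in 4 of 21 alternatives. The RNA of ATF4, which drives serine synthesis genes when amino acids run short, passed no test as reported, and ATF4 protein was not measured here. Its level was 183 ± 5.73 RPM at 40 mM with drug, 184 ± 7.61 RPM at 2 mM with drug, 178 ± 6.62 RPM at 40 mM without drug and 191 ± 10.4 RPM at 2 mM without drug (SD, n = 3 each). For glutamine without drug ATF4 gave −0.11 ± 0.039 (limma adjusted p = 0.0529), which passed with the filter of 5 RPM (0.0498), with robust moderation (0.038) and without replicate 1 (0.0375) or 3 (0.0406) at 2 mM without drug or replicate 1 at 40 mM without drug (0.0359). Among 16 genes of the ATF4 amino acid response, gemcitabine raised 4 and lowered 5 at 2 mM, where 34.6% of all genes were called, and raised 5 and lowered 4 at 40 mM, where 30.3% were. ATF3, at group means from only 5.2 to 8.9 RPM, rose by 0.66 at 2 mM and 0.51 at 40 mM. VLDLR rose by 0.56 and 0.30, a call at 40 mM that was lost in 10 of 21 alternatives. DDIT4 fell by 0.79 and 0.72, PYCR1 by 0.19 and 0.34, and SLC7A5 by 0.14 and 0.12. The call of SLC7A5 at 40 mM was lost in 2 of 21 alternatives. MYC, which can bind the E-box, had 187.5 ± 2.29 RPM at 40 mM with drug against 222.5 ± 2.99 RPM at 40 mM without it, a log2 fold change of −0.25 ± 0.031 (limma adjusted p = 1.19e-07). With drug, MYC was lower at 40 than at 2 mM glutamine, with a log2 fold change of −0.28 ± 0.031 (limma adjusted p = 4.73e-08). It was also lower at 40 mM without drug (−0.10, limma adjusted p = 0.0223), a call lost in 6 of 21 alternatives. The drug at 2 mM gave −0.07 (limma adjusted p = 0.0997), which passed with quantile normalization (−0.08, 0.0349).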

How the data were processed

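Total RNA of 12 MIA PaCa-2 libraries was sequenced; the aligner, counting program and genome build were not given in the sources used here. The deposited table holds log2 values per gene symbol, with 1 column per library named in the file headers. From the values, each is log2(RPM + 1): in every library 100% of RPM values were whole multiples of 1 read within 0.05 read, so reads and scaling factors were recovered.

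Genes reaching 1 RPM in at least 3 libraries were tested (12789; 2301 were not). Limma 3.58.1 (R 4.3.3) was run on the deposited log2 values with 4 group means, all 12 libraries and a trended prior. Two-sided p-values were adjusted by Benjamini and Hochberg's method across the tested genes, and the threshold was 0.05. Each fold change is a difference of log2(value + 1). The procedure was tested on simulated reads. Within groups, replicate pairs had a chi-square over degrees of freedom of 2.36 to 5.43, so each library counts once. Alternatives were 2 other filters, another pseudocount (0.1 RPM), quantile normalization, no scaling factors, voom on recovered reads, robust moderation, a replicate block, only the groups compared, and each library left out.

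The members and lists were chosen with earlier results of these data known. Genes could be named if they were among the 8 members, up to 4 called genes by smallest p per list and comparison, or TYMS, MTHFD2L, SLC25A32, SFXN1, MAT2A, CBS, ATF4 and MYC. Not every gene that met this rule is described. Some genes of these lists are not reported here by name; every fit and count includes them. The rule's genes of like profile required a span of 0.3 on the log2 scale, which no member reached.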

Additional observations from a re-analysis of the deposited data

Results flagged for a closer look

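By the limma interaction, the drug response was called different between the glutamine levels for 4 of 6 genes around 3-phosphoglycerate, the substrate of PHGDH. MYC was called too. The same test called 2.20% of all genes, 1.47% lower. Of the 6, ALDOA was barely measured, at group means from 2.25 to 2.79 RPM. GAPDH had an interaction of −0.28 ± 0.045 (limma adjusted p = 0.000341), with a drug response of −0.29 at 40 mM and −0.02 at 2 mM. PGK1 had −0.34 ± 0.055 (limma adjusted p = 0.000341), with −0.04 at 40 mM and 0.30 at 2 mM. ENO1 had −0.21 ± 0.037 (limma adjusted p = 0.00149), PGAM1 −0.17 ± 0.042 (limma adjusted p = 0.0244) and MYC −0.18 ± 0.044 (limma adjusted p = 0.0213).

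Quantile normalization gives each rank the same value in every library, which limits how far the highest genes can move. GAPDH had group means from 6799 to 8323 RPM and ENO1 from 2946 to 3562 RPM. The interaction calls of both held in 19 of 20 alternatives, and the part of this limit in their loss was not tested. With quantile normalization GAPDH (−0.04, limma adjusted p = 0.687), ENO1 (−0.07, 0.608) and PGAM1 (−0.10, 0.298) missed the threshold, and PGK1 missed it with robust moderation (limma adjusted p = 0.0939). PGAM1 and MYC also missed it without scaling factors and with voom, and MYC with quantile normalization. PGAM1 missed it in 7 of 12 fits that left out 1 library: replicates 1 (limma adjusted p = 0.0594) and 2 (0.0522) at 2 mM without drug, 1 (0.0973) and 3 (0.0515) at 2 mM with drug, 3 (0.0855) at 40 mM without drug, and 1 (0.0573) and 2 (0.0944) at 40 mM with drug. MYC missed it in 5: replicate 1 at 2 mM without drug (limma adjusted p = 0.0564), 2 (0.0789) and 3 (0.0649) at 2 mM with drug, 3 at 40 mM without drug (0.0504) and 1 at 40 mM with drug (0.0613).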

How the results depend on the processing

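Of the pairwise and interaction values of the members, 758 of the values under an alternative kept their direction and side of the threshold, 29 lost a call, 23 gained one and 22 changed sign, none of these 22 called in either fit. Counts over all genes for glutamine with drug became 2017 higher and 941 lower without scaling factors and 2041 and 959 with voom. Interaction calls became 96 lower with quantile normalization, 97 lower without scaling factors, and 141 higher and 98 lower with voom; the cause was not tested. Members called higher for glutamine without drug became 2 without scaling factors, 2 with voom and 1 with the replicate block (PHGDH, adjusted p = 0.0417). For glutamine with drug 1 member became higher with quantile normalization and 1 with voom (MTHFD2). For the drug at 40 mM, 0 members were lower without scaling factors and 0 with voom. In the interaction 2 members were lower with robust moderation and 1 with the replicate block (MTHFD1L, adjusted p = 0.0382).

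Leaving out 1 library gave 0 to 2 members higher and 0 to 1 lower for glutamine without drug, 2 to 3 higher and 0 to 1 lower for the drug at 2 mM, 1 to 2 higher and 1 to 3 lower for the drug at 40 mM, 2 to 3 lower for glutamine with drug and 0 to 1 lower for the interaction. All-gene interaction counts ranged over 47 to 103 higher and 104 to 263 lower.

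Sign changes on the log2 scale were as follows. With quantile normalization, glutamine with drug gave AHCY 0.005 and GAPDH 0.0 (both called lower as deposited), ATF4 0.044, PHGDH 0.03 and PSAT1 0.011, and the interaction of PSAT1 was 0.039. The 0.0 of GAPDH is no change of sign, and this setting limits how far so high a gene can move. Without scaling factors, glutamine with drug gave ATF4 0.045, PHGDH 0.048 and SHMT1 0.002, and the interaction of PSAT1 was 0.028. With voom these values were 0.042 for ATF4, 0.052 for PHGDH, 0.007 for SHMT1 and 0.029 for the PSAT1 interaction. With 1 library left out, uncalled values ran across 0: for glutamine with drug PHGDH −0.039 to 0.012, ATF4 −0.033 to 0.025 and CBS −0.142 to 0.004, for glutamine without drug SHMT1 −0.002 to 0.027 and MTHFD1L −0.003 to 0.086, for the drug at 40 mM MTHFD1 −0.018 to 0.042, SHMT1 −0.021 to 0.035 and CBS −0.14 to 0.007, for the drug at 2 mM SHMT2 −0.07 to 0.009, and for the interaction PSAT1 −0.022 to 0.01, MAT2A −0.022 to 0.056 and SLC25A32 −0.034 to 0.047.

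The replicate numbers do not pair the libraries: 18 correlations between same-numbered libraries of different groups lay between −0.077 and 0.048, and 0 were over 0.1. Counting alone gives the members a coefficient of variation of 1.04% to 2.56%, and PSPH remains uncertain for its copies.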

Other observations

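No member reached the span required by the rule for genes of like profile, so the nearest profiles of PHGDH and SHMT2 were looked up after the values were seen, among 6394 genes at or above the median level over 12 libraries. GOLM1, a Golgi membrane protein, was nearest to PHGDH, with a root mean square difference of 0.038 on the log2 scale. Its log2 fold changes were 0.25 for the drug at 2 mM and 0.20 for the drug at 40 mM. NACC2 was nearest to SHMT2, with a difference of 0.027, and gave −0.18 for glutamine with drug.

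The ratio of MTHFD2 to its relative MTHFD2L averaged 11.4 ± 0.704 at 40 mM with drug, 11.7 ± 0.641 at 2 mM with drug, 12.8 ± 0.668 at 40 mM without drug and 15.4 ± 0.34 at 2 mM without drug (SD, n = 3 each). The 3 libraries at 2 mM without drug lay above the other 9. MTHFD2L had group means of only 16.6 to 24.15 RPM. The ratio of MTHFD1 to MTHFD1L averaged 4.24 ± 0.13, 3.94 ± 0.0752, 3.83 ± 0.213 and 3.78 ± 0.163 in the same order of groups. These ratios and that of SHMT2 to SHMT1 were not planned and are descriptions, and how often other gene pairs separate in this way was not tested.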
